A study of Homo sapiens with 32 samples.

Results

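The combination of salinomycin and dasatinib was compared with control in MDA-MB-468 cells after 72 h, by sequencing of total RNA with gene-level read counts. MDA-MB-468 is an established human line of triple-negative breast cancer, and it was the one line sequenced. The comparison took every library of these 2 groups, 8 of the 32 libraries of the series: 4 treated with 0.5 µM salinomycin (Sal) plus 15 µM dasatinib (Das), here S + D, and 4 given PBS (control). The single drugs at the same doses and time, with 4 libraries each, served to show where S + D differed from them. The labels and the methods describe 4 biological replicates per condition. In each group 1 library carries no replicate number and the others are numbered 1 to 3. Values per library are given in the order unnumbered library, replicates 1, 2 and 3. Levels are CPM, read counts scaled to a common library size, so they compare libraries within a gene and not genes of different length. The ± after a level is the SD over 4 libraries, and the ± after a log2 fold change (S + D minus control) is its standard error.

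Salinomycin is a polyether ionophore that carries potassium and other cations across membranes, and it is known for its effect on stem-like breast cancer cells. Dasatinib inhibits tyrosine kinases of the SRC and ABL families. Kinase signalling from growth factor receptors runs through RAS and ERK to the immediate early transcription factors, to the feedback inhibitors of the pathway and to the cyclins that let E2F factors switch on the genes of DNA replication. Protein folding stress in the endoplasmic reticulum (ER) raises ER chaperones through ATF6 and XBP1 and stress genes through ATF4.

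The control libraries held 30852148 to 38613627 counts and the S + D libraries 32378890 to 38519318, summed over all genes listed. On the first principal component of the 16 libraries of 72 h, with 66.0% of the variance, control scores ran from -104 to -93.3 and S + D scores from 67.0 to 72.6. The unnumbered libraries deviated from their groups in a shared way: their deviations from the group means, over genes, correlated at 0.532 to 0.626 between groups. They were therefore treated as a batch with a term of their own. The library labelled Das replicate 3 lay at -79.3, near the controls, while the other Das libraries lay between -25.6 and -6.40. Differences from Das are given with and without it. It also entered the shared estimate of spread behind the other comparisons, and a fit on the control and S + D libraries alone gave 1522 genes higher and 1717 lower past both cutoffs in place of 1651 and 1779.

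Epithelial markers of the line were present in both groups, though most fell. Of 7 epithelial and basal-like markers tested, 1 rose (14.3%) and 5 fell (71.4%) at an adjusted p under 0.01. Over all genes tested, 31.6% rose and 32.2% fell. The median log2 fold change of the 7 was -0.91, and the lowest was -2.39. EPCAM stood at 351 ± 33.5 CPM in control and 306 ± 54.8 CPM in S + D, CDH1 at 269 ± 24.4 and 323 ± 37.6 CPM, and EGFR, which this line is known to carry in excess, at 5626 ± 342 and 3545 ± 889 CPM. Of the receptors whose absence defines the triple-negative class, PGR had at most 0.0884 CPM in any of the 8 libraries, and ESR1 averaged 7.28 CPM in control and 5.70 CPM in S + D, and ERBB2 averaged 125 and 67.5 CPM. Of the leukocyte markers, PTPRC and CD3E had at most 0.132 CPM in any library, and CD14 averaged 27.6 CPM in control and 4.67 CPM in S + D. Of the fibroblast markers, COL1A2, COL3A1, DCN and LUM had at most 0.147 CPM, while COL1A1 rose from 28.0 to 85.9 CPM (log2 fold change 1.59 ± 0.14). The endothelial marker VWF had at most 0.306 CPM and CDH5 averaged 0.272 CPM in control and 0.0895 CPM in S + D. CD14 and COL1A1 moved with the treatment while the other markers of their cell types stayed near 0, and their part in the results was not tested.

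The comparison asks which genes the combination moved. Of 16682 genes tested, 1651 (9.90%) were higher and 1779 (10.7%) were lower in S + D at an adjusted p under 0.01 and a log2 fold change past 1.5, the cutoffs of the study. The p-values came from the quasi-likelihood test of edgeR, adjusted over all genes tested by the method of Benjamini and Hochberg. At adjusted p alone, 5267 (31.6%) rose and 5365 (32.2%) fell, and the median log2 fold change over all genes was 0.01. Of the 3430 genes past both cutoffs, 3348 had no overlap between the 4 S + D and the 4 control libraries. Over all genes tested, 29.8% had all 4 S + D libraries above all 4 controls and 31.5% had them below. A log2 fold change over 4 was reached by 235 genes and one under -4 by 213 genes.

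**Figure D1:**
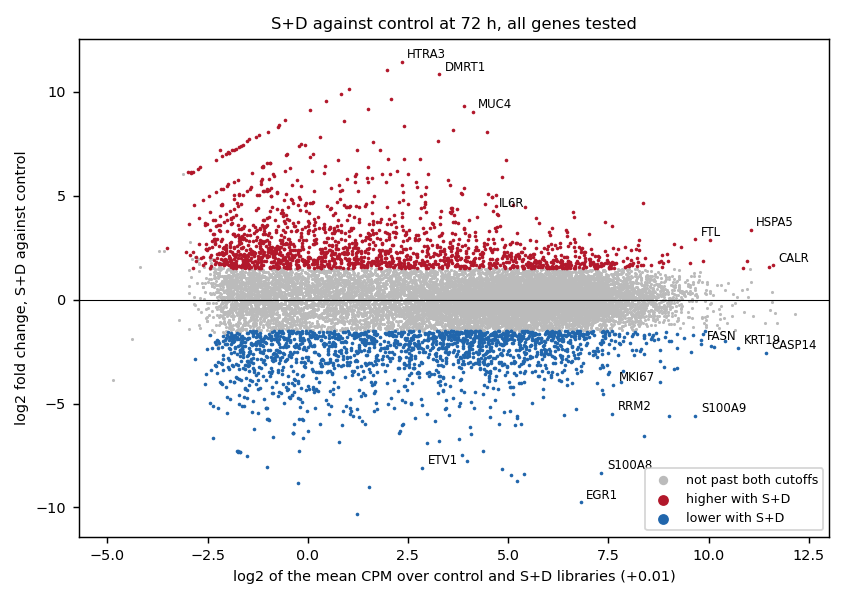
Log2 fold change of S + D against control (vertical axis) against log2 of the mean CPM over the 8 libraries (horizontal axis), one point for each of the 16682 genes tested. Red points are the 1651 genes higher and blue points the 1779 genes lower past both cutoffs. Red points lie mostly at low levels, with HSPA5 and CALR as exceptions, and EGR1 lies lowest among the labelled genes.

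Genes that rose were of lower abundance than genes that fell. Genes past both cutoffs that rose had a median level of 2.20 CPM over the 8 libraries, those that fell 6.88 CPM, and all genes tested 20.2 CPM. Long non-coding RNAs made up 26.9% of the genes that rose, 10.8% of those that fell and 12.3% of all tested. Protein-coding genes made up 63.1%, 82.6% and 79.9%. As a share of all counts, the genes that rose went from 2.13% in control to 8.57% in S + D, and the genes that fell from 11.6% to 2.47%. These shares describe the genes the cutoffs chose and carry no test.

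The unnumbered pair was set against the rest as a check of the batch. A fit on the numbered libraries alone put 1617 genes above and 1818 below control past both cutoffs. In the unnumbered pair of libraries, which that fit did not use, 1603 of the first (99.1%) were also higher in S + D and 1808 of the second (99.4%) were also lower. Over all genes tested, 50.0% were higher in the unnumbered S + D library than in the unnumbered control.

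**Figure D2:**
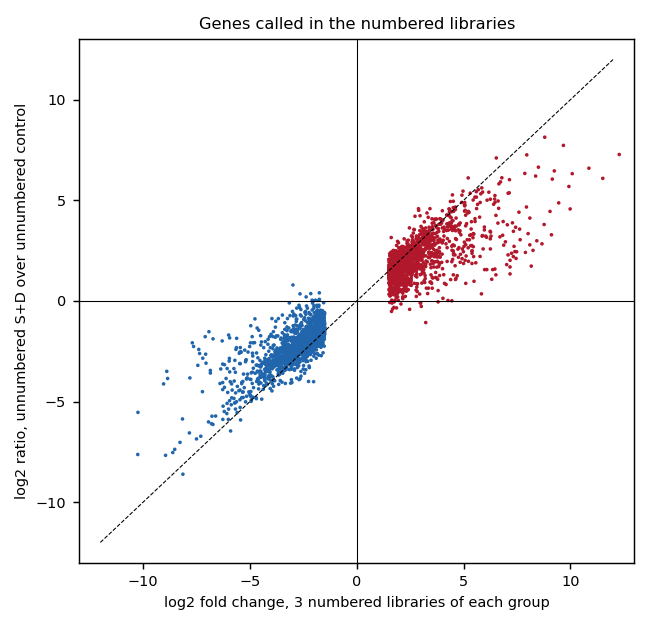
Log2 ratio of the unnumbered S + D library to the unnumbered control (vertical axis) against the log2 fold change in the numbered libraries (horizontal axis), one point for each of the 1617 genes higher (red) and 1818 genes lower (blue) in the numbered libraries, with a dashed line of equal values. Nearly all points lie on the same side of 0 on both axes, and many lie nearer to 0 on the vertical axis than the line. The ratio was taken after adding 0.1 CPM to each level, which moves genes of low level toward 0 on that axis.

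The largest rises, among genes at 5 CPM or more in S + D, started from genes that the control libraries hardly held. HTRA3, a secreted serine protease (chr4:8271481-8308825, GRCh37), had 0 counts in every control library and 6.73, 12.5, 10.5 and 11.0 CPM in S + D, which is at least 118-fold higher against 3 counts in each control library. NPHS1, nephrin of the kidney filter (chr19:36316274-36360189), also had 0 counts in control and 9.60, 6.12, 7.87 and 7.60 CPM in S + D, at least 90.9-fold higher. DMRT1, a transcription factor of the testis (chr9:841690-969090), had a single read among the 4 controls and 19.6, 20.9, 18.8 and 18.1 CPM in S + D. The other rises were ATG9B, a membrane protein of autophagy (0.0806, 0.0332, 0 and 0.0559 CPM in control, 38.3, 23.0, 28.0 and 29.5 CPM in S + D), and MUC4, a membrane mucin (0.0537, 0.0332, 0.0790 and 0.0839 and 43.3, 24.2, 36.3 and 34.9 CPM). With Sal alone HTRA3, NPHS1, DMRT1, ATG9B and MUC4 averaged 10.6, 4.49, 8.56, 10.9 and 45.7 CPM.

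Ratios of such genes carry wide counting intervals, which cover counting error only. The ratio of S + D to control was 2725 (95% interval 489 to 107672) for DMRT1, 703 (95% interval 322 to 1915) for ATG9B, 548 (95% interval 289 to 1200.1) for MUC4, 371 (95% interval 144 to 1363) for the sodium channel subunit SCN3B, 1169.7 (95% interval 209.5 to 46241) for BEX2 and 802 (95% interval 144 to 31726) for the serotonin receptor subunit HTR3A. In all, 49 genes had 3 counts or fewer in every control library and a mean of at least 1 CPM in S + D. Of these, 31 were protein-coding and 16 were long non-coding RNAs, 9 had 0 counts in every control library, and the highest group mean in S + D was 34.7 CPM.

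The reverse held for 27 genes, 21 of them protein-coding, with group means of up to 5.70 CPM in control. TM4SF18-AS1, an antisense RNA (chr3:149002569-149051440), fell from 1.64, 7.64, 7.27 and 6.23 CPM in control to a single read in S + D, a ratio of control to S + D of 787 (95% interval 141 to 31116). AQP5-AS1, antisense to an aquaporin gene, had 4.54, 4.98, 4.40 and 4.61 CPM in control and 0 counts in S + D, at least 54.0-fold lower. LBP, the lipopolysaccharide-binding protein, had 3.44, 2.62, 4.03 and 3.55 CPM in control and 0.0557, 0, 0.0516 and 0 CPM in S + D. PPP1R1A, an inhibitor of protein phosphatase 1, averaged 2.40 CPM in control and 0.0342 CPM in S + D, and keratin KRT6A 1.97 and 0.0213 CPM. Use of strand in the counting is not stated in the sources used here, so reads of an antisense RNA and of its partner cannot be told apart.

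EGR1 had one of the largest falls among genes at 5 CPM or more in the higher group. It encodes an immediate early zinc finger factor (chr5:137801168-137804992, GRCh37). EGR1 read 85.8, 229, 279.9 and 304 CPM in the control libraries and 0.334, 0.126, 0.258 and 0.265 CPM in the S + D libraries. The unnumbered control was the lowest of the controls and still far above every S + D library, and the log2 fold change was -9.75 ± 0.60 (adjusted p = 4.5e-10). S100A8 and S100A9, the subunits of calprotectin, fell together. S100A8 read 626, 233, 229.6 and 190.4 CPM in the control libraries and 3.28, 0.597, 0.645 and 0.412 CPM in the S + D libraries, a log2 fold change of -8.34 ± 0.42 with an adjusted p = 4.7e-11. S100A9 averaged 1593 ± 409 and 36.2 ± 20 CPM, a log2 fold change of -5.58 ± 0.27 with an adjusted p = 2.4e-11. Their neighbour S100A7A fell by 8.73 on the log2 scale, and its reads may be shared with the near-identical S100A7. The secreted proteins PI3 (elafin, -8.37 ± 0.55) and OLFM4 (-8.16 ± 0.42), the ETS factor ETV1 (-8.08 ± 0.35) and the GABA receptor subunit GABRP (-7.77 ± 0.43) completed the set, and these genes were chosen for not overlapping between the groups.

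In absolute level, the largest rises among genes past both cutoffs were of the secretory pathway. HSPA5, the ER chaperone BiP, gained most (chr9:127997132-128003661): HSPA5 read 409, 367, 384 and 355 CPM in the control libraries and 3673, 4499, 3706 and 3607 CPM in the S + D libraries, a log2 fold change of 3.36 ± 0.28 with an adjusted p = 1.1e-08. Every S + D library stood far above every control. CALR, calreticulin, went from 1503 ± 219 to 4761 ± 1021 CPM, P4HB, protein disulfide isomerase, from 857 ± 38.2 to 3131 ± 309 CPM, HSP90B1, the ER member of the HSP90 family, from 944 ± 43.2 to 2754 ± 334 CPM, and SEC61G, a subunit of the ER translocon, from 1485 ± 52.3 to 4355 ± 1134 CPM. The largest losses in level among genes past both cutoffs were of CASP14, the caspase of keratinocyte cornification (4741 ± 817 to 812 ± 78.0 CPM), and keratin KRT19 (2845 ± 287 to 576 ± 62.5 CPM). Next came the choline transporter SLC44A2 (2160.0 ± 88.7 to 539.8 ± 42.4 CPM), S100A9, and CRABP2, a retinoic acid carrier (1848 ± 254 to 382 ± 41.4 CPM). Genes short of the fold cutoff, such as EGFR, were not ranked.

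Lists of genes were then described by their counts at adjusted p under 0.01 and their median log2 fold change, to be read beside the 31.6% of all genes that rose, the 32.2% that fell and the median of 0.01. In every gene given here by library, the 4 S + D libraries lay wholly above or wholly below the 4 controls, as did 29.8% (above) and 31.5% (below) of all genes tested.

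**Figure D3:**
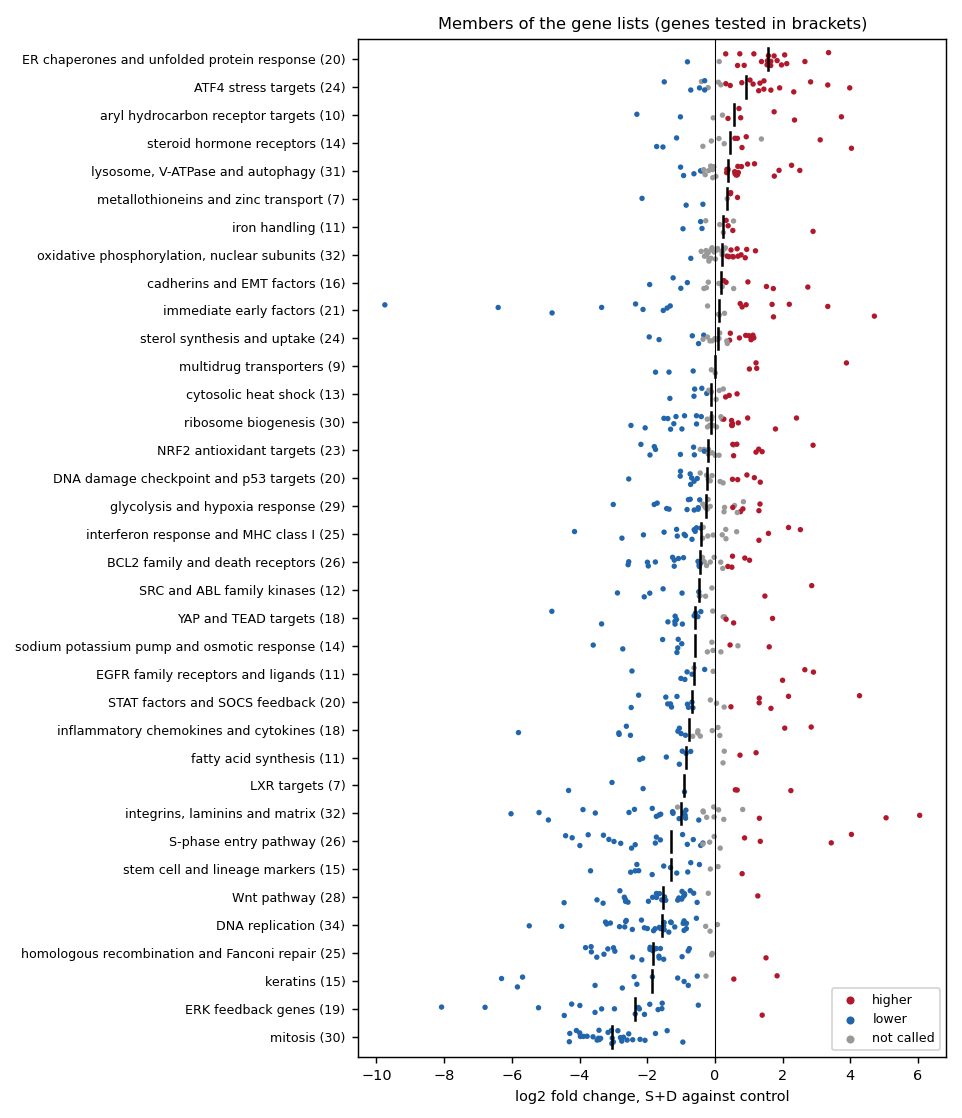
Log2 fold change of S + D against control (horizontal axis) for the tested members of each gene list (rows, number tested in brackets), one point per gene, red where higher and blue where lower at adjusted p under 0.01 and grey where not called, with a black bar at the list's median. Mitosis has the lowest median, followed by the ERK feedback genes, and the ER chaperones have the highest.

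Genes of cell division fell. All 30 genes of the mitosis list fell, with a median log2 fold change of -3.05, and 28 of them passed both cutoffs. Of 34 genes of DNA replication, 31 fell and the other 3 did not pass the test (median -1.56). Of 25 genes of homologous recombination and Fanconi repair, 22 fell and 1 rose (median -1.83). Of 26 genes of the S-phase entry pathway, 18 fell and 4 rose (median -1.28). In RNA from a bulk culture, fewer cells in a phase of the cycle and less RNA per cell cannot be told apart.

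Among entry factors, CCND1 read 286, 285, 277 and 277 CPM in the control libraries and 16.5, 15.1, 19.0 and 20.1 CPM in the S + D libraries, a log2 fold change of -3.99 ± 0.19 with an adjusted p = 2e-11. CCND1 is the D-type cyclin that answers growth factors. E2F2, an activating E2F factor, averaged 124 ± 10.7 and 9.87 ± 4.38 CPM (-3.74 ± 0.31). Other large falls were of the E2F factors, cyclins and cell cycle enzymes E2F7 (-4.41 ± 0.45), CCNE2 (-4.22 ± 0.39), CCNA2 (-3.29 ± 0.31), CDK1 (-3.13 ± 0.32), E2F1 (-2.98 ± 0.28) and CDC25A (-2.78 ± 0.26). CDK2 (-1.76 ± 0.15), the ubiquitin ligase subunit SKP2 (-1.73 ± 0.15) and MYC (-2.36 ± 0.17) fell less, and CDK4 (-0.35 ± 0.10) and E2F6 (-0.42 ± 0.11) lost their call under 9 and 7 of the 16 alternative settings. RB1, CDKN1B, E2F5 and ESR1 did not pass the test, at -0.02, 0.16, -0.16 and -0.36.

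The members that rose were 4. CDKN1A, the p21 inhibitor of cyclin-dependent kinases, read 52.5, 40.7, 37.9 and 38.9 CPM in control and 132, 112, 95.9 and 90.1 CPM in S + D, a log2 fold change of 1.34 ± 0.11 with an adjusted p = 1.2e-08. The S + D libraries all lay above the controls. ESR2, the estrogen receptor beta, is a gene of very low level here: it read 0.134, 0.0332, 0.0527 and 0.0559 CPM in control and 1.45, 0.785, 1.39 and 1.21 CPM in S + D, a log2 fold change of 4.03 ± 0.40 with an adjusted p = 7.8e-08. ESR2 read 1.10, 2.01, 1.41 and 1.82 CPM with Sal alone and 0.195, 0.185, 0.355 and 0.279 CPM with Das alone. CCNA1, the germ line A-type cyclin, rose from 0.273 to 2.83 CPM (3.44 ± 0.37), and E2F4, an E2F factor of quiescent cells, from 51.4 to 94.3 CPM (0.88 ± 0.14).

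In replication, RRM2, the small subunit of ribonucleotide reductase, fell most. RRM2 read 354, 410.2, 375 and 369 CPM in the control libraries and 10.9, 7.88, 8.73 and 6.74 CPM in the S + D libraries, a log2 fold change of -5.49 ± 0.48 with an adjusted p = 2.1e-08. No S + D library came near a control. MCM10 (-4.53 ± 0.41), GINS1 (-3.23 ± 0.29), thymidylate synthase TYMS (-3.20 ± 0.27), GINS2 (-3.09 ± 0.28), MCM5 (-2.82 ± 0.25) and CDC45 (-2.67 ± 0.23), parts of the origin and helicase machinery apart from TYMS, followed. PCNA, the sliding clamp, fell from 453 to 145 CPM (-1.64 ± 0.18). LIG1, POLA2 and RFC2 did not pass the test, at -0.27, -0.14 and 0.07. For TYMS, 47.9% of exon bases overlap exons of another gene.

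In mitosis, MKI67 read 338, 388, 348 and 412 CPM in the control libraries and 28.9, 11.1, 26.5 and 21.4 CPM in the S + D libraries, a log2 fold change of -4.09 ± 0.41 with an adjusted p = 8.4e-08. MKI67 encodes the proliferation antigen Ki-67. PLK1, the polo-like kinase of mitotic entry, read 118, 137, 135 and 155 CPM in control and 15.5, 9.04, 10.6 and 10.7 CPM in S + D (-3.60 ± 0.31). The unnumbered S + D library was the highest of its group in both genes and lay below every control. Beside MKI67, the largest falls were of separase ESPL1 (-4.30 ± 0.39), the kinetochore proteins CENPE (-4.29 ± 0.32) and CENPF (-3.98 ± 0.31), the kinesin KIF20A (-4.00 ± 0.41) and the transcription factor FOXM1 (-3.88 ± 0.36), and the smallest of AURKA (-1.41 ± 0.16) and MAD2L1 (-0.95 ± 0.14).

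In repair, the helicases BRIP1 (-3.82 ± 0.35) and BLM (-3.28 ± 0.30), RAD54L (-3.66 ± 0.32), the nuclease EXO1 (-3.65 ± 0.36), FANCI (-3.49 ± 0.27) and FANCD2 (-3.00 ± 0.24) fell, as did the tumour suppressors BRCA1 (-1.75 ± 0.17) and BRCA2 (-1.65 ± 0.22). The kinase ATM was the one member that rose, from 52.5 to 149.9 CPM (1.51 ± 0.17). ATR and PALB2 did not pass the test, at -0.10 and -0.08.

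The promoters of these lists were read for the motifs of the factors that time them, in RefSeq windows of 300 bases (250 before to 50 after the start of transcription, GRCh38.p14, 1 window per gene, both strands). E2F motifs, searched as TTTGGCGC, TTTCCCGC, TTTCGCGC and TTTGCCGC, were in 17 of the 30 DNA replication genes with a window (56.7%), against 908 of all 27305 windows (3.33%). The CHR motif TTTGAA was in 17 of the 24 mitosis genes with a window (70.8%) against 15.4% of all windows, and the CCAAT box in 18 of 24 (75.0%) against 35.7%. In DNA replication the CCAAT box was in 17 of 30 windows (56.7%). E2F motifs were in 1 of the 24 mitosis genes. In S-phase entry 7 of 20 windows held an E2F motif (35.0%) and in homologous recombination 5 of 22 (22.7%). The motifs searched may overlap each other, and a match is a description of the letters, not a site. GINS1 and ESPL1, the members of DNA replication with an E2F match and of mitosis with a CHR match that fell furthest, are shown, with the E2F motif of GINS1 (first base at position 5, the start being 0) and the CHR motif of ESPL1 (first base at -31) in capitals.
GINS1: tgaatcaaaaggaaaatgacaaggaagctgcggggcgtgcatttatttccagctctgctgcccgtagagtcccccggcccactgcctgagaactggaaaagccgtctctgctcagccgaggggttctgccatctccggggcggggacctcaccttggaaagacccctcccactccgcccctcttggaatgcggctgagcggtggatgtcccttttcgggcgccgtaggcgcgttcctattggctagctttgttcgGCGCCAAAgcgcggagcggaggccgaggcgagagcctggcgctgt
ESPL1: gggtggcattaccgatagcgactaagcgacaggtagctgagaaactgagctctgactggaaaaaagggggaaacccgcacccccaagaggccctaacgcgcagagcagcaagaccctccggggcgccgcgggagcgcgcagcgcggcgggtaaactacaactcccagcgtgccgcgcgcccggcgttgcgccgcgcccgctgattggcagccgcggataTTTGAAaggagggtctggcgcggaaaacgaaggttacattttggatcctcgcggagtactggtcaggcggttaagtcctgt
The GINS1 window is chr20:25407423-25407722, plus strand, and the ESPL1 window chr12:53268049-53268348, plus strand.

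Nearly all ERK feedback genes fell. Of 19 ERK feedback genes, 18 fell and 1 rose, with a median of -2.36, and 17 fell past both cutoffs. The list includes CCND1 and MYC, which are also counted in S-phase entry. It also includes IER3, counted among the immediate early factors, and EPHA2, counted among the SRC and ABL family kinases. DUSP6, the phosphatase that removes phosphate from ERK, read 14.8, 20.6, 21.7 and 20 CPM in control and 0.111, 0.314, 0.181 and 0.0884 CPM in S + D, a log2 fold change of -6.79 ± 0.29 with an adjusted p = 7.6e-12. Each S + D library held under 1 CPM. ETV1, an ETS factor downstream of ERK, read 9.32, 16.6, 16.9 and 14.7 CPM in control and 0, 0, 0.0774 and 0.118 CPM in S + D, a log2 fold change of -8.08 ± 0.35 with an adjusted p = 8.8e-12. ETV1 had 7 reads over the 4 S + D libraries and at most 4 in a library, and it got no counting interval. Its relatives ETV5 (-5.21 ± 0.23) and ETV4 (-4.23 ± 0.25) fell as well, as did the inhibitors of RAS signalling SPRY4 (-4.45 ± 0.22), SPRY1 (-2.26 ± 0.11), SPRED2 (-1.68 ± 0.11) and SPRED1 (-1.57 ± 0.10), the phosphatases DUSP4 (-2.97 ± 0.09) and DUSP5 (-2.08 ± 0.12), and PHLDA1 (-3.54 ± 0.13). SPRED3 was the member that rose, from 0.289 to 0.768 CPM (1.4 ± 0.31), a call lost in the numbered libraries alone. DUSP7 (-0.49 ± 0.14) lost its call under 6 of the 16 alternatives. For DUSP6, 28.6% of exon bases overlap another gene.

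The immediate early factors divided. Of 21 tested, 8 rose and 9 fell (median 0.11), and EGR2 and EGR4 were under the filter on low counts. The shares were 38.1% and 42.9%, against 31.6% and 32.2% of all genes tested. Beside EGR1, FOS fell from 49.7 ± 13.3 to 1.71 ± 0.347 CPM (-4.81 ± 0.28), FOSL1 from 6.53 to 1.27 CPM (-2.34 ± 0.21), JUNB from 244 to 99.0 CPM (-1.32 ± 0.16) and IER3 from 1032 to 102 CPM (-3.35 ± 0.19). EGR3 averaged 1.52 CPM in control and 0.0134 CPM in S + D, with a ratio of control to S + D of 106 (95% interval 29.0 to 882). JUN, ATF3, NR4A3, FOSB and JUND were among the members that rose. JUN read 62.3, 72.1, 80.4 and 91.3 CPM in the control libraries and 259, 274, 243 and 235 CPM in the S + D libraries, a log2 fold change of 1.73 ± 0.21 with an adjusted p = 1e-06. ATF3, a stress factor, rose by 3.33 on the log2 scale, the nuclear receptor NR4A3 from 0.360 to 9.39 CPM (4.71 ± 0.35), FOSB from 3.32 to 14.9 CPM (2.20 ± 0.30) and JUND from 70 to 226 CPM (1.69 ± 0.21).

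The CArG box of serum response factor was in 2 of 18 windows of this list (11.1%), those of EGR1 and SRF, against 1.29% of all windows. The EGR1 window is shown because EGR1 fell furthest in this list and holds 2 matches, in capitals, with first bases at -105 and -83 (chr5:138465229-138465528, plus strand, GRCh38.p14).
EGR1: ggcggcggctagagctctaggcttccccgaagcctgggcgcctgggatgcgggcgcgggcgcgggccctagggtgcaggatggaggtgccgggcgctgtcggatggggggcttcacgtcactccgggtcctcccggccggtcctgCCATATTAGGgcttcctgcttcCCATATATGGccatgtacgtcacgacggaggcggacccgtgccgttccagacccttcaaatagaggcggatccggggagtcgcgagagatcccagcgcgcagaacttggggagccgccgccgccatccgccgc

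**Figure D4:**
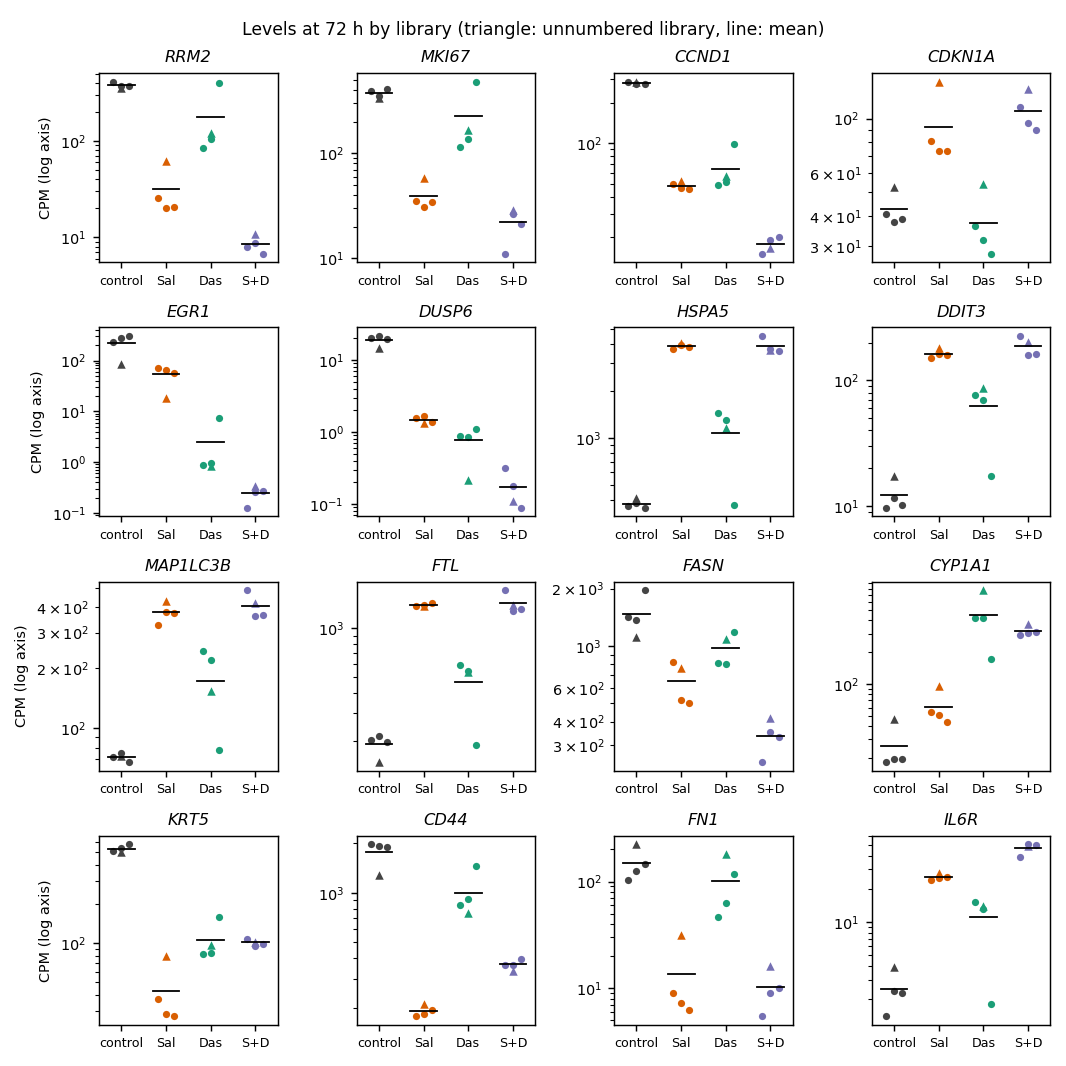
Level in CPM (log axis) of 16 genes in the control, Sal, Das and S + D libraries of 72 h, one panel per gene and one point per library, with a triangle for the unnumbered library and a line at the group mean. EGR1, RRM2 and CCND1 are lowest in the 4 S + D libraries, DUSP6 overlaps there with the unnumbered Das library, HSPA5 averages 3879 CPM with Sal and 3872 CPM with S + D, and one Das library, replicate 3, stands near the controls in RRM2, MKI67, HSPA5, DDIT3, FTL and IL6R.

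Most genes of ER folding stress rose. Of 20 ER chaperones and unfolded protein response genes, 18 rose and 1 fell, with a median of 1.57, and 12 passed both cutoffs. After HSPA5 came HERPUD1, a part of ER-associated degradation (153 ± 14.3 to 972 ± 155 CPM, 2.66 ± 0.27), the folding factors CRELD2 (2.12 ± 0.20), SDF2L1 (2.06 ± 0.21) and MANF (1.97 ± 0.21), the chaperone HYOU1 (1.84 ± 0.18) and the co-chaperones DNAJB11 (1.75 ± 0.17) and DNAJC3 (1.65 ± 0.17). The sensor kinase ERN1 rose less (0.73 ± 0.12). XBP1, the factor that ERN1 splices, was the member that fell, from 620.0 to 356 CPM (-0.81 ± 0.14). CANX did not pass the test, at 0.13. The cytosolic heat shock list differed: of 13 genes, 3 rose and 5 fell, with a median of -0.10. HSP90AA1 fell from 1406 to 559 CPM (-1.33 ± 0.16) and HSPA1B rose from 60.3 to 95.1 CPM (0.65 ± 0.09). With 1 library left out, 1 to 3 members were called higher and 2 to 5 lower, the fewest of the latter without the unnumbered S + D library. Of the called members, HSP90AB1 lost its call under 12 of 16 alternatives and HSPA1A and HSF1 under 8 each, and reads of HSPA1A and HSPA1B may be shared.

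Among ATF4 stress targets, 15 of 24 rose and 5 fell (median 0.91). DDIT3, the factor CHOP, read 17.2, 9.63, 11.6 and 10.2 CPM in control and 204, 227, 161 and 161 CPM in S + D, a log2 fold change of 3.98 ± 0.32 with an adjusted p = 9.6e-09. Every S + D library stood above every control, and 39.6% of its exon bases overlap another gene. ATF3 read 19.2, 14.7, 14.3 and 14.0 CPM in the control libraries and 203, 153, 139 and 135 CPM in the S + D libraries, a log2 fold change of 3.33 ± 0.26 with an adjusted p = 5.8e-09. GDF15, a secreted stress cytokine, rose from 1.47 to 8.87 CPM (2.83 ± 0.47), PPP1R15A, the subunit that restores translation, from 56.6 to 284 CPM (2.33 ± 0.23), the glycoprotein hormone STC2 from 114 to 425 CPM (1.91 ± 0.16) and NUPR1 from 181 to 569.7 CPM (1.65 ± 0.17). CEBPB, a partner of DDIT3, fell (-1.50 ± 0.14). The amino acid transporters SLC7A5 (1.33 ± 0.16), SLC7A11 (1.29 ± 0.17) and SLC3A2 (1.13 ± 0.13) rose. Of the serine pathway, PSPH (-0.71 ± 0.12) and PHGDH (-0.46 ± 0.13) fell and PSAT1 (0.32 ± 0.09) rose, PHGDH and PSAT1 losing their call under 6 and 5 of 16 alternatives. ASNS, TRIB3, SHMT2 and DDIT4 did not pass the test, at -0.20, 0.10, 0.17 and -0.40. The number called lower was 2 in place of 5 without the batch term, without control replicate 2 or without the unnumbered S + D library, and 3 without S + D replicate 2 or 3.

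Of 31 genes of the lysosome, V-ATPase and autophagy, 18 rose and 4 fell (median 0.37). MAP1LC3B, the LC3 protein of the autophagosome membrane, read 72.7, 72.1, 74.8 and 67.8 CPM in control and 419.6, 488, 361 and 365 CPM in S + D, a log2 fold change of 2.51 ± 0.24 with an adjusted p = 5.2e-08. The groups did not overlap. The WD protein WIPI1 (2.26 ± 0.22), sialidase NEU1 (1.89 ± 0.17), the autophagy receptor SQSTM1 (342 ± 35.1 to 1151 ± 88.9 CPM, 1.75 ± 0.15) and the V-ATPase subunit ATP6V1D (1.17 ± 0.12) followed, and the factor TFE3 rose (0.69 ± 0.08). Proteases went both ways. CTSB read 376, 323, 322 and 366 CPM in the control libraries and 175, 178, 165 and 166 CPM in the S + D libraries, a log2 fold change of -1.02 ± 0.11 with an adjusted p = 1.9e-07. CTSD fell from 471 to 248 CPM (-0.93 ± 0.12), while CTSL (0.62 ± 0.11) and CTSA (0.66 ± 0.10) rose. The factor TFEB was not called, at -0.33.

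The ATF4 element TGATGNAA was in 4 of 19 windows of the ATF4 list (21.1%) against 3.67% of all windows, and the CLEAR element TCACGTGA of the TFEB family in 4 of 20 lysosome windows (20%) against 1.04%. The windows of ATF3 and CTSA are shown as the members with a match that rose most, with the ATF4 element (first base at -191) and the CLEAR element (first base at -26) in capitals (chr1:212565157-212565456 and chr20:45891085-45891384, plus strand, GRCh38.p14).
ATF3: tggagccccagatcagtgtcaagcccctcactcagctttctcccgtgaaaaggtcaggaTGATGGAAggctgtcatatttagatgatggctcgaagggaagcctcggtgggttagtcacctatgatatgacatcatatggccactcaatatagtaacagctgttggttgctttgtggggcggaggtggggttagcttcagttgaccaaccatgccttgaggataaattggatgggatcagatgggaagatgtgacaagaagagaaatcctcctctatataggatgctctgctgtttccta
CTSA: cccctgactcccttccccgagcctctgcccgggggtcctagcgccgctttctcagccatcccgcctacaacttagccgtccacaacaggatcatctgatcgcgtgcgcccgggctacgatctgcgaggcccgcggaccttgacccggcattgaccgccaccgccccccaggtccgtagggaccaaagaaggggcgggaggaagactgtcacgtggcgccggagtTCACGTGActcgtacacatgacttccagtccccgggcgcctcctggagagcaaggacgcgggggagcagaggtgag

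Genes of lipid synthesis moved both ways. Of 24 genes of sterol synthesis and uptake, 8 rose and 5 fell (median 0.10). That is 33.3% and 20.8%, beside 31.6% and 32.2% of all genes tested. The isomerase IDI1 (133 ± 27.8 to 288 ± 32.4 CPM, 1.15 ± 0.12), the sterol carrier STARD4 (1.12 ± 0.15), the epoxidase SQLE (1.07 ± 0.12) and the decarboxylase MVD (1.00 ± 0.14) were among those that rose. SREBF2, the factor that drives these genes, fell (-0.48 ± 0.10). FDFT1 (-0.33 ± 0.10, with a log2 ratio of 0.02 in the unnumbered pair) and HMGCS1 (0.43 ± 0.12) lost their call under 8 and 5 of 16 alternatives. The sterol element TCACNCCAC was in 1 of 18 windows, that of SREBF2.

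Of 11 genes of fatty acid synthesis, 7 fell and 2 rose (median -0.85). FASN, fatty acid synthase, read 1116, 1412, 1373 and 1965 CPM in control and 419.7, 245, 353 and 334 CPM in S + D, a log2 fold change of -2.13 ± 0.21 with an adjusted p = 8e-08. The factor SREBF1 fell with it, from 159 to 35.0 CPM (-2.22 ± 0.18), as did ACLY (-1.44 ± 0.12), ACSL3 (-1.05 ± 0.09) and SCD (-0.96 ± 0.17), while the desaturases FADS1 (0.74 ± 0.11) and FADS2 (1.21 ± 0.12) rose. For SCD the log2 fold change was -1.30 in the numbered libraries, while the log2 ratio in the unnumbered pair was 0.08. ME1 and ELOVL5 did not pass the test. Among 7 targets and receptors of the LXR pathway, 4 fell and 3 rose (median -0.90). The cholesterol exporter ABCA1 read 2.42, 2.66, 3.16 and 3.35 CPM in control and 0.334, 0.126, 0.0516 and 0.0884 CPM in S + D, a log2 fold change of -4.32 ± 0.64 with an adjusted p = 9.3e-06. ABCG1 (-3.04 ± 0.33) and MYLIP (-2.12 ± 0.23) fell too, and APOE rose from 1.61 to 7.75 CPM (2.24 ± 0.32).

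Of 11 EGFR family receptors, ligands and regulators tested, 3 rose and 6 fell (median -0.62). The receptor EGFR read 5191, 5875, 5513 and 5923 CPM in control and 2768, 2786, 4379.7 and 4247 CPM in S + D, a log2 fold change of -0.68 ± 0.13 with an adjusted p = 0.00012. ERBB2 (-0.89 ± 0.12) and ERBB3 (-0.82 ± 0.08) fell as well, and the feedback inhibitor ERRFI1 fell (242 ± 14.7 to 44.4 ± 2.31 CPM, -2.45 ± 0.13). The ligands HBEGF (4.52 to 18.1 CPM, 2.00 ± 0.13), EREG (0.267 to 2.04 CPM, 2.91 ± 0.37) and EPGN (0.196 to 1.18 CPM, 2.66 ± 0.49) rose. ERBB4, AREG and NRG1 were under the filter on low counts.

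Of 12 SRC and ABL family kinases and related tyrosine kinases, 2 rose and 7 fell (median -0.47). SRC read 54.6, 49.5, 52.8 and 62.6 CPM in the control libraries and 13.6, 12.2, 12.3 and 13.7 CPM in the S + D libraries, a log2 fold change of -2.09 ± 0.14 with an adjusted p = 1.6e-09. BTK fell furthest, from 0.772 to 0.0969 CPM (-2.88 ± 0.41). The collagen receptor DDR1 fell from 1431 ± 171 to 495 ± 33.2 CPM (-1.53 ± 0.12), and EPHA2 (-1.93 ± 0.12), CSK (-0.97 ± 0.12), YES1 (-0.48 ± 0.10) and ABL1 (-0.46 ± 0.11) fell. FYN rose from 13.4 to 37.4 CPM (1.48 ± 0.13) and DDR2 from 0.642 to 4.68 CPM (2.86 ± 0.32). ABL2, FRK and LYN did not pass the test, and LCK, FGR and BLK were under the filter.

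Of 18 YAP and TEAD genes, 12 fell and 3 rose (median -0.59). CCN2, the growth factor CTGF, read 21.3, 19.8, 23.6 and 19.3 CPM in control and 0.640, 0.816, 0.852 and 0.736 CPM in S + D, a log2 fold change of -4.82 ± 0.25 with an adjusted p = 6.3e-11. TEAD4 (-3.35 ± 0.20), WWTR1, which encodes TAZ (-1.39 ± 0.14), and YAP1 (-1.18 ± 0.11) fell. CCN1, another YAP target, was not called, at 0.24, and ANKRD1 rose from 3.73 to 12.5 CPM (1.70 ± 0.29). Calls of LATS2, NUAK2 and TEAD1 were lost under 11, 10 and 7 of 16 alternatives.

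Of 20 genes of STAT factors, their receptors and SOCS feedback, 11 fell and 6 rose (median -0.66). BCL3 (-2.47 ± 0.16) and the feedback inhibitor SOCS1 (-2.25 ± 0.37) fell furthest. STAT3 fell from 357 ± 2.13 to 204 ± 18.4 CPM (-0.81 ± 0.08), and STAT5A (-1.45 ± 0.14), STAT6 (-0.78 ± 0.10) and SOCS3 (-1.4 ± 0.18) fell. STAT2 read 48.9, 48.7, 49.7 and 49.8 CPM in the control libraries and 263, 171, 228 and 228 CPM in the S + D libraries, a log2 fold change of 2.17 ± 0.20 with an adjusted p = 3.8e-08. IL6R, the interleukin-6 receptor, read 3.90, 1.4, 2.35 and 2.26 CPM in control and 49.3, 38.7, 50.6 and 49.4 CPM in S + D, a log2 fold change of 4.27 ± 0.42 with an adjusted p = 6.9e-08. STAT2 and IL6R were higher in every S + D library. The shared receptor chain IL6ST was not called, at -0.14.

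Of 28 Wnt pathway genes tested, 26 fell and 1 rose (median -1.53), and 14 fell past both cutoffs. CTNNB1, beta-catenin, read 609.8, 505, 506 and 484 CPM in control and 185, 142, 130.5 and 134 CPM in S + D, a log2 fold change of -1.84 ± 0.12 with an adjusted p = 5.6e-10. Ligands (WNT5B -4.46 ± 0.45, WNT10B -3.49 ± 0.39, WNT6 -2.64 ± 0.15, WNT7B -1.45 ± 0.12), the co-receptors LRP5 (-0.97 ± 0.15) and LRP6 (-0.89 ± 0.15), the factors TCF7 (-3.30 ± 0.24), TCF7L2 (-1.97 ± 0.15) and TCF7L1 (-1.73 ± 0.16) and the targets AXIN2 (-2.68 ± 0.19) and APCDD1 (-2.81 ± 0.15) fell, and so did the inhibitors SFRP1 (-2.57 ± 0.11), NKD1 (-1.73 ± 0.23) and DKK1 (-1.49 ± 0.41). FZD8 was the member that rose, from 0.201 to 0.489 CPM (1.27 ± 0.39), and its call was lost under 7 of 16 alternatives. RNF43 was not called, at -0.20. LEF1, WNT7A, NKD2, DKK3 and NOTUM were under the filter.

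Of 15 keratins tested, 12 fell and 2 rose (median -1.85). Basal KRT5 read 501, 507, 536 and 576 CPM in control and 103, 109, 95.1 and 99.4 CPM in S + D, a log2 fold change of -2.39 ± 0.26 with an adjusted p = 2.1e-07. Its partner KRT14 fell from 17.8 to 0.312 CPM (-5.84 ± 0.32), and the luminal keratins KRT8 (1043 ± 194 to 288 ± 46.7 CPM, -1.85 ± 0.19) and KRT18 (-0.91 ± 0.10) fell. KRT6B fell from 12.6 to 0.245 CPM (-5.68 ± 0.39). KRT6A had a ratio of control to S + D of 92.6 (95% interval 31.4 to 452) and KRT13 of 12.9 (95% interval 4.76 to 49.3). KRT17 read 59.9, 25.1, 29.1 and 41.4 CPM in the control libraries and 234, 131, 106 and 96.1 CPM in the S + D libraries, a log2 fold change of 1.84 ± 0.33 with an adjusted p = 7.1e-05. KRT17 lay above every control in every S + D library, against the direction of most of the list. KRT6A and KRT6B are near-identical and may share reads, and KRT15 lost its call under 11 of 16 alternatives.

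Of 15 stem cell and lineage markers tested, 12 fell and 1 rose (median -1.31). CD44 read 1278, 1971, 1926 and 1899 CPM in the control libraries and 338, 367, 368 and 399 CPM in the S + D libraries, a log2 fold change of -2.25 ± 0.16 with an adjusted p = 2.9e-09. CD44 is the hyaluronan receptor used to mark stem-like breast cancer cells. PROCR, the protein C receptor of mammary stem cells, fell from 0.833 to 0.0638 CPM (-3.68 ± 0.44). The aldehyde dehydrogenases ALDH1A3 (990.5 ± 161 to 198 ± 6.30 CPM, -2.31 ± 0.13) and ALDH1A1 (-2.49 ± 0.19), PROM1, which encodes CD133 (-1.85 ± 0.10), SOX9 (-1.51 ± 0.10) and the luminal factors FOXA1 (-2.36 ± 0.15) and GATA3 (-1.31 ± 0.10) fell. KLF4 rose from 13.6 to 23.8 CPM (0.80 ± 0.15). TFAP2A and TP63 did not pass the test, and SOX2, SOX10, POU5F1, NANOG and LGR5 were under the filter.

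Cadherins and factors of the epithelial-mesenchymal transition went both ways, 6 of 16 rising and 4 falling (median 0.17). These shares, 37.5% and 25%, stand beside 31.6% and 32.2% of all genes tested. VIM, vimentin, read 33.1, 28.8, 36.9 and 39.5 CPM in control and 94.5, 119, 94.4 and 89.5 CPM in S + D, a log2 fold change of 1.52 ± 0.19 with an adjusted p = 1.3e-06. ZEB1 rose from 0.111 to 0.784 CPM (2.74 ± 0.47) and OVOL1 from 4.96 to 16.4 CPM (1.72 ± 0.20). CDH3, P-cadherin, fell from 106 ± 4.47 to 27.9 ± 1.44 CPM (-1.93 ± 0.18) and GRHL2 from 123 to 52.0 CPM (-1.24 ± 0.11). E-cadherin CDH1 rose slightly (0.26 ± 0.08), a call lost under 9 of 16 alternatives. CDH2, CDH11, SNAI2, TWIST1 and ZEB2 were under the filter.

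Of 32 integrins, laminins and matrix genes tested, 20 fell and 3 rose (median -0.99). FN1 read 223, 103, 124 and 145 CPM in the control libraries and 16.3, 5.46, 8.96 and 10.1 CPM in the S + D libraries, a log2 fold change of -3.90 ± 0.29 with an adjusted p = 4.1e-09. FN1 encodes fibronectin, and the matrix protein tenascin C fell with it (TNC, -3.53 ± 0.35). Integrin ITGA9 fell from 10.0 to 0.153 CPM (-6.02 ± 0.51), ITGB5 from 189.6 to 36.5 CPM (-2.38 ± 0.10) and ITGB4 from 177 to 55.7 CPM (-1.65 ± 0.19), the integrin ITGB3 had a ratio of control to S + D of 42.8 (95% interval 14.3 to 210.4), and LAMB1 fell from 106 to 32.1 CPM (-1.73 ± 0.14). The collagen-binding integrin ITGA1 went the other way. ITGA1 read 0.0806, 0.0664, 0.211 and 0.112 CPM in the control libraries and 8.79, 7.54, 7.74 and 8.69 CPM in the S + D libraries, a log2 fold change of 6.05 ± 0.32 with an adjusted p = 8.8e-11. The protease MMP7 fell from 10.4 to 0.341 CPM (-4.92 ± 0.29), MMP9 averaged 0.0137 CPM in control and 0.578 CPM in S + D with a ratio of 40.7 (95% interval 10.9 to 341), and the inhibitor TIMP1 rose from 28.0 to 69.6 CPM (1.31 ± 0.20). Without the unnumbered S + D library 5 members were called higher in place of 3.

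Of 14 nuclear hormone receptors tested, 6 rose and 3 fell (median 0.43). Beside ESR2, the retinoic acid receptor RARB rose. RARB read 1.59, 2.39, 2.06 and 2.21 CPM in the control libraries and 13, 18.7, 20.7 and 19.0 CPM in the S + D libraries, a log2 fold change of 3.11 ± 0.19 with an adjusted p = 4.3e-10. RARG (-1.54 ± 0.12), RARA (-1.13 ± 0.14) and VDR fell. VDR read 112, 129, 129 and 143 CPM in the control libraries and 35.5, 36.9, 41.5 and 41.5 CPM in the S + D libraries, a log2 fold change of -1.72 ± 0.11 with an adjusted p = 6e-10. PPARA (0.92 ± 0.15), PPARD (0.80 ± 0.11) and PPARG (0.59 ± 0.11) rose. ESR1, RXRA, NR3C1, NR3C2 and GPER1 did not pass the test.

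Of 18 inflammatory chemokines and cytokines tested, 9 fell and 2 rose (median -0.76), and 8 were under the filter. CXCL8 read 14.8, 4.25, 3.66 and 3.10 CPM in the control libraries and 1.14, 0.911, 0.542 and 0.589 CPM in the S + D libraries, a log2 fold change of -2.84 ± 0.36 with an adjusted p = 1.4e-06. The unnumbered control was far above the other controls. LIF fell from 35.1 ± 14.6 to 4.84 ± 1.70 CPM (-2.83 ± 0.26), CCL20 from 2.44 to 0.395 CPM (-2.62 ± 0.29), CXCL1 from 4.22 to 0.738 CPM (-2.5 ± 0.27) and CSF1 from 58.1 to 27.2 CPM (-1.09 ± 0.11). IL32 rose from 0.0805 to 0.581 CPM (2.84 ± 0.54), and IL1RN, the interleukin-1 receptor antagonist, rose from 22.6 ± 4.08 to 93.5 ± 10.4 CPM (2.06 ± 0.17). CXCL10 averaged 0.991 CPM in control and 0.0134 CPM in S + D, a ratio of control to S + D of 69.7 (95% interval 18.9 to 581).

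Of 25 genes of the interferon response and MHC class I, 13 fell and 4 rose (median -0.42). The antiviral synthetases OAS2 (-4.15 ± 0.27) and OAS3 (-2.75 ± 0.25), IFIT3 (-2.11 ± 0.14) and MX1 (-1.50 ± 0.15) fell, while ISG15 (1.30 ± 0.19), IRF7 (1.58 ± 0.19) and IFI27 (2.52 ± 0.46) rose. Of the MHC genes, B2M (-0.55 ± 0.11) and HLA-E (-0.91 ± 0.11) fell and HLA-B and HLA-C did not pass the test. HLA genes may share reads with each other, and IFI44 (-0.42 ± 0.13) lost its call under 12 of 16 alternatives.

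Of 29 genes of glycolysis and the hypoxia response, 12 fell and 5 rose. The median was -0.27, and it was -0.40 without the unnumbered control and -0.16 without the unnumbered S + D library. LDHA read 1093, 1352, 1228 and 1103 CPM in the control libraries and 352, 436, 342 and 333 CPM in the S + D libraries, a log2 fold change of -1.71 ± 0.12 with an adjusted p = 1.9e-09. LDHA is lactate dehydrogenase A. PKM (1760.0 ± 179 to 687 ± 52.8 CPM, -1.36 ± 0.15), CA9 (-1.43 ± 0.19), the prolyl hydroxylase EGLN3 (-1.79 ± 0.14) and glucose transporter SLC2A3 (-3.00 ± 0.32) fell, and ENO2 (1.33 ± 0.20), BNIP3 (1.30 ± 0.15), ALDOA (0.83 ± 0.14) and HK2 (0.75 ± 0.16) rose. For ALDOA, 54.2% of exon bases overlap another gene. Of 32 nuclear subunits of oxidative phosphorylation, 11 rose, 1 fell and 20 did not pass the test (median 0.21, 0.06 to 0.29 with 1 library left out and lowest without S + D replicate 1). ATP5MC1 (1.20 ± 0.13), NDUFA1 (0.94 ± 0.14) and UQCRQ (0.90 ± 0.13) led the rises. Without the batch term 7 rises were called in place of 11. The one fall, NDUFB8, lost its call under 7 of the 16 alternatives, and 7 members were called lower without S + D replicate 1.

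Of 30 ribosome biogenesis genes, 9 rose (30%) and 12 fell (40%), with a median of -0.12. Over all genes tested, 31.6% rose and 32.2% fell. RRP12 read 45.2, 37.5, 39.4 and 46.5 CPM in the control libraries and 223, 221, 224 and 226 CPM in the S + D libraries, a log2 fold change of 2.41 ± 0.24 with an adjusted p = 9.3e-08. PPAN (1.79 ± 0.17) and PES1 (0.97 ± 0.18) rose with it, while BOP1, a partner of PES1 (-2.48 ± 0.27), UTP20 (-2.06 ± 0.20) and nucleolin NCL (1358 ± 178 to 588 ± 99.4 CPM, -1.21 ± 0.09) fell.

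The ferritin genes rose. FTL read 149, 204, 214 and 199 CPM in the control libraries and 1399, 1723, 1274 and 1311 CPM in the S + D libraries, a log2 fold change of 2.90 ± 0.25 with an adjusted p = 2.1e-08. FTL is the light chain of ferritin, and every S + D library stood far above the controls. The heavy chain FTH1 rose from 1615 ± 351 to 2358 ± 842 CPM (0.53 ± 0.15), with 63.2% of exon bases shared with another gene. Of 11 iron handling genes, 4 rose (36.4%) and 3 fell (27.3%), with a median of 0.25. Over all genes tested, 31.6% rose and 32.2% fell. The transferrin receptor TFRC (0.33 ± 0.10) lost its call under 5 of 16 alternatives. Of 23 NRF2 antioxidant targets, 7 rose (30.4%) and 8 fell (34.8%), near the shares of all genes, with a median of -0.19. The glutathione synthesis subunit GCLM (1.39 ± 0.12) and SLC7A11 rose, AKR1B10 (-2.19 ± 0.24), NQO1 (-1.02 ± 0.11) and the near-identical AKR1C1 and AKR1C2 (-1.92 ± 0.18 and -1.79 ± 0.17) fell, and HMOX1 was not called, at 0.55.

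Of 10 genes of the aryl hydrocarbon receptor pathway, 6 rose and 2 fell (median 0.55). CYP1A1, the cytochrome that this receptor induces, read 46.8, 18.3, 19.6 and 19.7 CPM in control and 368, 290.3, 304 and 309 CPM in S + D, a log2 fold change of 3.74 ± 0.24 with an adjusted p = 7.2e-10. ALDH3A1 (2.35 ± 0.19) and TIPARP (1.75 ± 0.13) rose, and CYP1B1, with 747 ± 45.4 CPM in control and 722 ± 70.6 CPM in S + D, did not pass the test. Of 7 metallothionein and zinc genes, 3 rose and 3 fell (median 0.36). The zinc importer SLC39A10 fell furthest (-2.15 ± 0.14), and metallothionein reads may be shared among copies.

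Of 14 genes of the sodium potassium pump and osmotic response, 7 fell and 2 rose (median -0.60). SLC12A2, the sodium, potassium and chloride importer, read 383, 342, 317 and 297 CPM in control and 31.3, 23.4, 27.7 and 28.2 CPM in S + D, a log2 fold change of -3.60 ± 0.18 with an adjusted p = 3.2e-11. The beta subunits of the pump ATP1B1 (-1.09 ± 0.11) and ATP1B3 (-0.98 ± 0.12) and its regulators FXYD3 (-1.55 ± 0.14) and FXYD5 (-1.10 ± 0.09) fell. The kinase SGK1 fell from 6.80 to 1.04 CPM (-2.72 ± 0.22). The potassium channel KCNK1 rose from 24.5 to 74.7 CPM (1.60 ± 0.18), and 1 of the 2 rises was called without the unnumbered control. Of 9 multidrug transporters, 4 rose and 3 fell (median 0.01). ABCB6 (1.23 ± 0.15), ABCC2 (1.21 ± 0.25) and ABCC4 (1.02 ± 0.15) rose, ABCC3 (-1.76 ± 0.10) and ABCB9 (-1.36 ± 0.19) fell, ABCG2 averaged 0.0270 CPM in control and 0.481 CPM in S + D with a ratio of 16.8 (95% interval 6.27 to 63.5), and ABCB1 did not pass the test.

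Of 26 BCL2 family and death receptor genes tested, 14 fell and 5 rose (median -0.45), and pro-death and anti-death members were among both. MCL1 read 559, 507, 522 and 498 CPM in the control libraries and 327, 256, 258 and 259 CPM in the S + D libraries, a log2 fold change of -0.93 ± 0.08 with an adjusted p = 1.8e-08. MCL1 and BCL2L1 (-1.08 ± 0.10) are known to protect cells, and both fell, and so did the pro-death members BID (-2.0 ± 0.17), BIK (-1.97 ± 0.21) and BCL2L11, which encodes BIM (-1.20 ± 0.19). TNFSF10, the death ligand TRAIL, read 137, 265, 254 and 238 CPM in control and 33.8, 42.1, 34.8 and 36.5 CPM in S + D, a log2 fold change of -2.57 ± 0.19 with an adjusted p = 3.7e-09. Its receptor TNFRSF10B (0.52 ± 0.09) and the inhibitor BIRC2 (1.02 ± 0.11) rose. BAX, BCL2, PMAIP1 and BBC3 did not pass the test. Of 20 checkpoint and p53 target genes, 5 rose (25%) and 8 fell (40%), with a median of -0.22. Over all genes tested, 31.6% rose and 32.2% fell. Beside CDKN1A, XPC (1.16 ± 0.10) and GADD45A (0.94 ± 0.16) rose, and FAS (-2.55 ± 0.35), MDM2 (-1.02 ± 0.13) and SFN (-1.03 ± 0.21) fell.

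**Figure D5:**
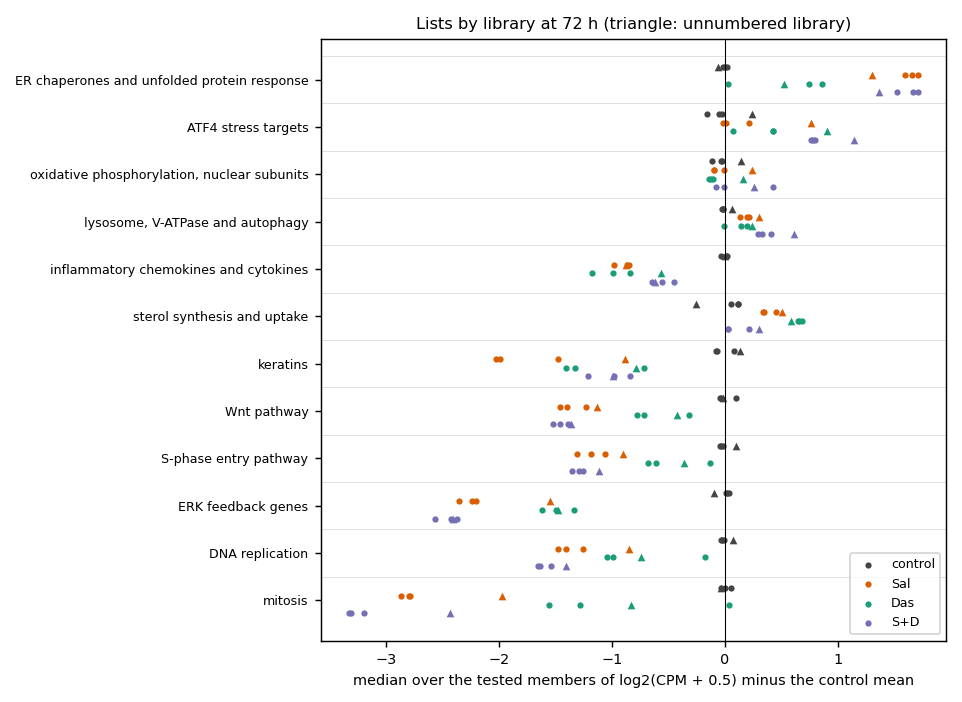
Median over the tested members of log2(CPM + 0.5) minus the control mean (horizontal axis) for 12 gene lists (rows) in each of the 16 libraries of 72 h, one point per library coloured by group, with a triangle for the unnumbered library. The S + D points lie below those of control in the cell cycle, ERK feedback, Wnt and keratin lists and above them in the ER list, near the Sal points in most, and the Das points lie between in mitosis and in the ER list apart from replicate 3, at the controls.

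S + D differed from Sal alone in few genes. Of 16682 genes tested, 120 (0.719%) were higher and 118 (0.707%) lower in S + D past both cutoffs, and 701 (4.20%) and 702 (4.21%) at adjusted p alone. Comparisons with Sal, Das and control share the S + D libraries. The number of genes higher than with Sal was 69 without the batch term, and the number lower was 78 in the numbered libraries alone. Values below are log2 fold changes of S + D minus Sal.

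The ERK feedback genes were the list with the most falls against Sal: 14 of 19 were lower, and 11 were lower in the numbered libraries alone. EGR1 read 18.1, 72.4, 65.0 and 57.9 CPM with Sal in the order given above, and the difference was -7.65 ± 0.59 (adjusted p = 3.7e-07). DUSP6 read 1.35, 1.56, 1.67 and 1.4 CPM with Sal (-3.13 ± 0.33, adjusted p = 8e-06). FOS stood at 31.5 ± 10.0 CPM with Sal (-4.14 ± 0.28), ETV5 at 7.29 ± 0.626 CPM (-3.68 ± 0.23), S100A8 at 14.1 ± 19.2 CPM (-3.26 ± 0.40) and CCN2 at 6.38 ± 1.68 CPM (-3.04 ± 0.25). The call of S100A8 was lost without the batch term (adjusted p = 0.024).

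Among rises over Sal, MAPK4, an atypical MAP kinase, stood at 0.464 ± 0.193 CPM with Sal, 61.1 ± 6.40 CPM with Das and 9.20 ± 1.88 CPM with S + D (4.30 ± 0.24 against Sal, adjusted p = 8.8e-09). The matrix protein SMOC1 (3.64 ± 0.21), DDIT4L (2.69 ± 0.34) and CYP1A1 (2.46 ± 0.23) were likewise highest on average with Das alone, at 26.2 ± 7.50, 28.6 ± 15.2 and 449 ± 247 CPM. The adhesion protein L1CAM was not: it stood at 3.98 ± 1.93 CPM in control, 11.7 ± 4.42 CPM after Sal, 6.43 ± 3.55 CPM after Das and 81.9 ± 5.4 CPM after S + D (2.89 ± 0.34 against Sal, 3.73 ± 0.35 against Das and 3.42 without Das replicate 3). FYN (1.41 ± 0.13), SLC7A5 (1.24 ± 0.16) and HMOX1 (1.65 ± 0.24) were higher than with Sal. For CYP1A1 the difference of S + D from Das was not called (-0.38 ± 0.21, and -0.59 without Das replicate 3, where it was called). Das replicate 3 held 174 CPM of CYP1A1, below every S + D library.

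HSPA5 averaged 3879 ± 146 CPM with Sal against 3872 ± 421 CPM with S + D, a difference of 0.00 ± 0.25 (adjusted p = 0.998), and over the 20 ER genes the differences ran from -0.31 ± 0.08 for CANX to 0.39 ± 0.19 for CRELD2. P4HB, which is not in that list, stood at -0.46 ± 0.16. In the mitosis list 2 of 30 genes were lower than with Sal, in DNA replication 5 of 34 and in homologous recombination 4 of 25, and at most 1 in each list in the numbered libraries alone. RRM2 stood at 32 ± 20 CPM with Sal and was lower with S + D (-1.84 ± 0.42, adjusted p = 0.0062, and 0.040 in the numbered libraries). Sterol genes were lower than with Sal in 7 of 24 (6 in the numbered libraries), and FASN was at -0.96 ± 0.20, with an adjusted p = 0.012 in the numbered libraries. Chemokines and cytokines were higher in 8 of 18, TNF at 1.84 ± 0.37 and CXCL1 at 1.72 ± 0.37, and 5 were higher in the numbered libraries. KRT5 (1.29 ± 0.25) and CD44 (0.92 ± 0.16) were higher than with Sal and lower than in control.

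Against Das alone, 641 genes (3.84%) were higher and 933 (5.59%) lower past both cutoffs, and 3466 (20.8%) and 3830 (23.0%) at adjusted p alone. Without Das replicate 3 the numbers past both cutoffs were 583 and 709. That library held 373 CPM of HSPA5 where the other Das libraries held 1161 to 1437 CPM, and 397 CPM of RRM2 where they held 83.9 to 121 CPM. Values below are log2 fold changes of S + D minus Das, followed by the value without that library.

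The cell cycle lists were lower than with Das: 29 of 30 genes of mitosis, 26 of 34 of DNA replication and 21 of 25 of homologous recombination, and 29, 26 and 20 without Das replicate 3. MKI67 differed by -3.37 ± 0.39 and -2.61, RRM2 by -4.41 ± 0.46 and -3.53 and CCND1 by -1.85 ± 0.17 and -1.55. In the ER list 16 of 20 were higher and 1 lower with and without that library. HSPA5 differed by 1.86 ± 0.26 and 1.60 and DDIT3 by 1.62 ± 0.29 and 1.33. EGR1 was already far below control with Das, at 0.852, 0.893, 0.957 and 7.43 CPM, and differed by -3.28 ± 0.68 and -2.01. DUSP6 read 0.219, 0.893, 0.851 and 1.11 CPM with Das. ETV1 read 0.341, 0.277, 0.603 and 0.712 CPM with Das (-3.19 ± 0.49 and -2.99). The ERK feedback genes were lower in 12 of 19 (11 without that library) and higher in 2 (1 without it). ETV5 at 0.365 ± 0.210 CPM with Das did not differ past the threshold (0.65 ± 0.31 and 0.36), while SPRY4 (1.01 ± 0.25 and 0.85) and ETV4 (0.97 ± 0.27 and 0.73) were above their level with Das, ETV4 with an adjusted p = 0.013 without that library. Sterol genes were lower in 14 of 24 in both fits. Stem cell and lineage markers were lower in 12 of 15 (11 without it) and Wnt genes in 21 of 28 (20 without it).

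At 5 CPM or more in the higher group, the largest rises over Das were of genes near 0 in control. HTR3A averaged 0.109 ± 0.0751 CPM with Das and 5.68 ± 3.01 CPM with S + D, BEX2 0.166 ± 0.146 and 8.35 ± 1.39 CPM, ATG9B 0.629 ± 0.551 and 29.7 ± 6.37 CPM, NPHS1 0.167 ± 0.125 and 7.80 ± 1.43 CPM, and DMRT1 0.599 ± 0.437 and 19.4 ± 1.20 CPM. With Sal alone they averaged 2.61, 3.63, 10.9, 4.49 and 8.56 CPM. The largest falls at 5 CPM or more in the higher group were of CLCA2, a chloride channel regulator (-5.74 ± 0.69 and -4.49), and CRISP2 (-5.65 ± 0.38 and -5.4). Next came keratin KRT4 (-5.54 ± 0.31 and -5.03), the pseudogene FMO6P (-5.45 ± 0.33 and -5.13) and the cytochrome CYP4Z1 (-5.44 ± 0.47 and -4.83). Genes below that level were not ranked. Among them, AQP5-AS1 averaged 0.463 ± 0.294 CPM with Das and had 0 counts in every S + D library. KRT4 stood at 164 ± 26.1 CPM in control, 19.0 ± 4.88 CPM after Sal, 160.2 ± 86.2 CPM after Das and 3.43 ± 0.259 CPM after S + D. CYP4Z1 stood at 15.4 ± 1.22, 0.945 ± 0.693, 14.6 ± 9.37 and 0.331 ± 0.112 CPM in the same order.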

How the data were processed

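Libraries were made with a TruSeq RNA kit from MDA-MB-468 cells and read as single ends. The submitters' processing notes name bcl2fastq 2.19, STAR 2.5.2, Cufflinks 2.1.1 and DESeq2, with the GRCh37 build. The authors deposited raw read counts per Ensembl gene for 48804 genes, of which 33132 had at least 1 count. The counting program, annotation and use of strand are not given in the sources used here. Columns of the numbered libraries matched the sample labels by name. Columns ending in 0, among them 1 control and 1 S + D library, match no label in full and were taken as the library of that letter whose label has no replicate number. Of the identifiers, 46537 matched the annotation used for names and GRCh37 coordinates.

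The 16 libraries of 72 h were fitted together with edgeR 4.0.16 (R 4.3.3, limma 3.58.1; TMM scaling, filterByExpr with a minimum count of 10, quasi-likelihood test, Benjamini-Hochberg adjustment over 16682 genes), with a term for group and a term for the unnumbered libraries, left out in an alternative. Both cutoffs were an adjusted p under 0.01 together with a log2 fold change beyond 1.5 in either direction, and list genes were called at adjusted p under 0.01. Simulated counts with 200 of 16682 genes changed by a log2 fold change of 2.5 gave 200 calls with edgeR and 200 with DESeq2 1.42.0, and 0 false calls with either. The changed genes were well above the filter on low counts, and no batch and no library out of place were simulated. The check therefore covers the running of the procedure, not low counts, the batch or the many changes seen here. Levels are CPM scaled by TMM. The p-values and standard errors measure the spread between replicates pooled over the control, Sal, Das and S + D groups, Das replicate 3 included. The labels call the 4 replicates of each group biological. Genes with 3 counts or fewer in every library of a group got a bound against 3 counts per library where all were 0, or a ratio with a 95% counting interval.

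The genes named were the 8 largest rises and 8 largest falls without overlap, at a mean of 5 CPM or more in the higher group. Added to them were the 5 largest gains and losses in CPM among genes past both cutoffs. So were the 5 largest bounds among genes near 0 in a group (at least 1 CPM in the other). The 5 largest changes each way against Sal and against Das were taken past both cutoffs, at a mean of 5 CPM or more in the higher group. Members of 36 gene lists were named too, those with the largest changes and those not called. The lists and the comparison itself were chosen with earlier results of these data known. Of 756 distinct list genes, 7 had no match and were not analysed here. A few members of the lists enter the counts and medians but are not reported by name here. Promoter windows are RefSeq sequence of GRCh38.p14.

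Alternatives were other size factors, no filter on low counts, no batch term, a replicate block, the numbered libraries alone, only the libraries compared, all 32 libraries, DESeq2, other cutoffs, and each library left out. List counts against Das without Das replicate 3 and against Sal in the numbered libraries were added after seeing the data. Data were handled in Python 3.11.15 with pandas 2.3.3 and scipy 1.17.1.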

Additional observations from a re-analysis of the deposited data

Results flagged for a closer look

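In 32 of 206 groups of 4 libraries examined (15.5%), 1 library stood apart: its gap to the nearest of the other libraries, as a share of the group's whole range, passed Dixon's 95% critical value for 4 samples. Chance flags about 1 in 20 groups. In 25 of the 32 the library was the unnumbered one, the library treated as a batch.

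Among levels in the control libraries, with the unnumbered library apart, the share was 0.973 for OLFM4 (31.1 CPM against 66.0 to 67.0), 0.950 for CYP1A1 (46.8 CPM against 18.3 to 19.7), 0.934 for CASP14 (3517 CPM against 5075 to 5186), 0.910 for CRABP2 and 0.903 for S100A8 (626 CPM against 190.4 to 233). It was 0.902 for CXCL8, 0.896 for CD44, 0.886 for S100A9 and 0.870 for ATF3. For KRT19 control replicate 3 was apart, at 0.907.

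Among levels in the S + D libraries, the unnumbered library was apart with 0.966 for MCL1 (327 CPM against 256 to 259), 0.919 for S100A8, 0.908 for S100A7A and 0.877 for SLC44A2. S + D replicate 1 was apart with 0.897 for CRABP2, 0.896 for SEC61G (6049 CPM against 3637 to 3887), 0.889 for HSPA5 (4499 CPM against 3607 to 3706) and 0.888 for IL6R.

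For DMRT1, BEX2 and HTR3A in control and TM4SF18-AS1 in S + D the share was 1, each from a single read in 1 library and 0 in the others.

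Among list medians, the unnumbered control was apart in S-phase entry (0.838), fatty acid synthesis (0.858), cytosolic heat shock (0.871), lysosome (0.861), interferon response (0.873), stem cell and lineage markers (0.890), aryl hydrocarbon receptor targets (0.857) and multidrug transporters (0.851). The unnumbered S + D library was apart in mitosis (0.859, a median of -2.44 against -3.33 to -3.20 relative to the control mean) and ATF4 stress targets (0.918, 1.14 against 0.76 to 0.79).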

How the results depend on the processing

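Against control, the counts of 1651 higher and 1779 lower past both cutoffs became 5267 and 5365 at adjusted p alone and 2778 and 2865 with a log2 fold change cutoff of 1. Against Sal, 120 and 118 became 701 and 702, and 255 and 242, with 69 higher without the batch term and 78 lower in the numbered libraries alone. Against Das, 641 and 933 became 3466 and 3830, and 1221 and 1617. The looser cutoffs raise the counts by construction, and the cause of the other shifts was not tested. With each library left out in turn, the counts ran from 1636 to 1749 and 1703 to 1853 against control, from 89 to 129 and 97 to 112 against Sal, and from 583 to 766 and 709 to 1003 against Das, the lowest of the last without Das replicate 3. The other settings kept each count within 1.5 times. DESeq2 gave 1660 and 1769 against control, sharing 3408 genes of 3430, and no filter on low counts gave 2097 and 1994.

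In a fit with the replicate block, 1648 genes were higher and 1789 lower. Deviations of libraries with the same number correlated, in the numbered libraries alone, at 0.106, -0.055 and 0.0989 for numbers 1, 2 and 3, so the numbers were not taken to pair the samples. The genes that the naming rule chose for the comparison with control kept direction and call in that comparison under every alternative run, and those chosen only against Sal or Das were not rerun one by one. Of 531 list genes called, 456 kept their call under all 16 alternatives, 75 lost it under at least 1, and 0 changed sign. Of 169 not called, 50 were called under at least 1. Among the nuclear subunits of oxidative phosphorylation, called falls were 0 to 7 with 1 library left out. Without the batch term, called rises were 2 in place of 4 in iron handling and 3 in place of 5 in the BCL2 family, and in the numbered libraries alone 1 in place of 3 among metallothioneins and zinc transport. List medians also moved with 1 library left out. Sterol synthesis ran from 0.02 to 0.14 (lowest without the unnumbered control). Cytosolic heat shock ran from -0.15 to -0.05 (nearest 0 without control replicate 2, and also nearer 0 without the unnumbered S + D library). Immediate early factors ran from 0.07 to 0.16 (highest without S + D replicate 1). EGFR family genes ran from -0.69 to -0.41 (without the unnumbered S + D library) and NRF2 targets from -0.23 to -0.12 (without S + D replicate 3). Ribosome biogenesis ran from -0.22 to -0.07 (lowest without S + D replicate 1, nearest 0 without either unnumbered library). Multidrug transporters ran from -0.11 to 0.17, with either sign. Medians far from 0 shifted too, mitosis from -3.23 to -2.97, keratins from -1.95 to -1.70 and integrins, laminins and matrix from -1.07 to -0.82. Depth limits genes near 3 counts per library, whose ratios carry wide intervals.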
